A study of Mus musculus with 4 samples.

Results

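The main olfactory epithelium (MOE) of the TAAR enhancer 1-GFP line was sorted into GFP-positive and GFP-negative cells, and the genes that do not encode odorant receptors (Olfr symbols) or trace amine-associated receptors (Taar symbols) were compared between the resulting RNA-seq libraries. A gene was kept when it had at least 10 TPM (transcripts scaled to gene length and to a fixed library total) in either library of the line, which gave 11373 of the 24421 genes in the deposited values. The 1140 genes with an Olfr or Taar symbol were left out, and 11908 other genes were below the limit in both libraries. Just inside the limit was Cxcl1, with 6.71 TPM in the GFP-negative and 10 TPM in the GFP-positive library, and just outside it was Pcdhb14, which reached 10 TPM only after rounding. The rule also kept 11586 genes when it was applied to the libraries of the second transgenic line.

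Both GFP libraries came from mice labelled C57BL/6 that carried the same PiggyBac transgene, in which TAAR enhancer 1 sits upstream of the minimal promoter of mouse Hsp68 and drives GFP. The other pair of libraries, tdTomato-positive and tdTomato-negative, came from mice of the same strain label, with TAAR enhancer 2 and the same promoter in front of tdTomato. The reporting summary of the study gives mixed C57BL/6J and 129 backgrounds for its mouse lines, and the methods name C57BL/6J eggs. The animals were labelled adult, whereas the study's reporting summary gives a younger postnatal age, and the MOE was dissociated and sorted by fluorescence. A single founder line was kept for each transgene, so the effect of an enhancer cannot be told apart from that of the place where its transgene inserted. The transcript of the GFP reporter was not analysed here, so the sort was checked with the receptor genes. Taar genes had a summed TPM of 86.1 in the GFP-negative and 804.1 in the GFP-positive library, while that of the Olfr genes was 18447 in the GFP-negative and 1565 in the GFP-positive library. Each group had 1 library, so differences could not be checked in replicates and none was tested.

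The MOE holds olfactory sensory neurons (OSNs), which detect odorants on their cilia, together with basal stem cells and sustentacular cells, which support the neurons and break down odorants. Bowman glands beneath it release mucus and odorant-binding proteins, and the neighbouring respiratory epithelium holds multiciliated cells and secretory cells. Lateral nasal and septal glands open into the same cavity, and immune cells reside in the tissue or arrive with blood. The known genes of these cells and of their functions were therefore used to describe the transcriptome.

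In GFP-positive cells, the largest gains were in genes of nasal glands and of epithelial cells other than neurons, and the largest losses were in genes of immune cells and of mature OSNs. Differences are given as log2(TPM + 1), GFP-positive minus GFP-negative, and a gene was called higher or lower when they reached 4-fold. Of the 11373 genes, 855 (7.52%) were called higher, 1666 (14.6%) were called lower, and 8852 (77.8%) stayed within 4-fold. With the receptor genes included, 864 of 11935 genes (7.24%) were called higher and 2155 (18.1%) were called lower. The median difference was -0.91. The 25% and 75% points of the differences were -1.51 and -0.23, and the 1% and 99% points were -4.92 and 5.13. In all, 9044 genes (79.5%) had a lower value in GFP-positive cells.

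TPM is a share of a fixed total, so genes that take a large share of a library lower all other values in it. The 855 genes called higher held 1.77% of the summed TPM in the GFP-negative and 49.7% in the GFP-positive library. The 1666 genes called lower held 22.8% in the GFP-negative and 2.96% in the GFP-positive library. The genes within 4-fold held 72.2% in the GFP-negative and 45.9% in the GFP-positive library. Of the genes called in either direction, 33.9% were called higher. This share was 61.3% (1210 higher and 765 lower) when the libraries were scaled by the median ratio, which shifted the median gene by 0.85. It was 47.6% (1022 higher and 1125 lower) when the 10 highest genes of either library were removed, a shift of 0.46. It was 95.9% (5834 higher and 252 lower) when mature OSN genes were set equal between the libraries, a shift of 2.94. No gene called in either direction changed its sign under the first or the second of these scalings, while 912 genes called lower had a higher value under the third. List medians below are therefore to be read against this median of -0.91 rather than against 0, and calls of lower genes in particular depend on the scaling. In bulk libraries such as these, fewer cells of a type and less RNA per cell cannot be told apart.

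The limit itself fixed part of these counts. A total of 7763 genes reached 10 TPM in both libraries, and 164 of them (2.11%) were called higher and 566 (7.29%) lower. Another 1056 genes passed only through the GFP-positive library, of which 691 were called higher, and 2554 passed only through the GFP-negative library, of which 1100 were called lower. Among the genes called higher, 150 had a listed value of 0 in the GFP-negative library, and among those called lower, 95 had one in the GFP-positive library. A listed 0 can be a failed estimate, since Rpl26, a ribosomal protein gene that every cell uses, and the haemoglobin genes Hbb-bs, Hbb-bt, Hba-a1, and Hba-a2 were listed at 0 in all 4 libraries. Of the 823 genes with 100 TPM or more in both libraries, 31 were called higher and 46 lower, and their median was -0.57. The largest of their decreases was that of Mir429 (1636 and 124.2 TPM). Calls were most frequent at the highest levels. Of the 133 genes with 1000 TPM or more in either library, 37 (27.8%) were called higher and 28 (21.1%) lower, compared with 383 (9.13%) and 576 (13.7%) of the 4197 genes with 10 to 30 TPM. Short RNA genes were called more often than others: 49 of 55 genes with a Mir symbol and 22 of 35 with a Snord or Snora symbol, compared with 2450 of the other 11283 genes (21.7%).

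**Figure D1:**
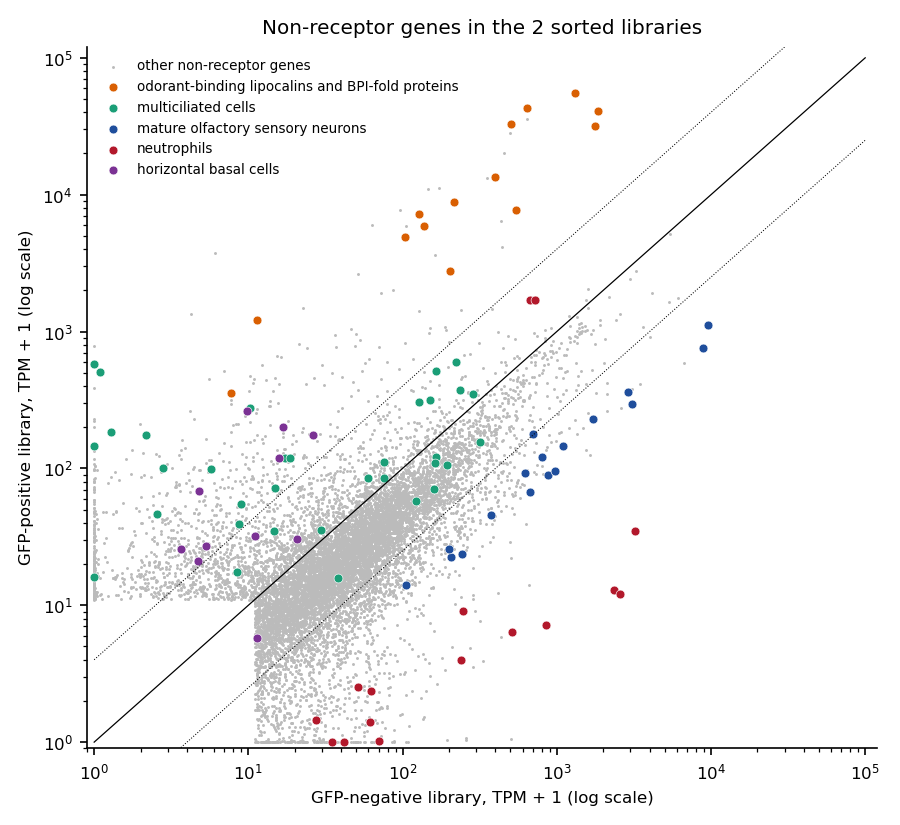
TPM + 1 of each of the 11373 non-receptor genes in GFP-negative cells (x axis, log scale) and GFP-positive cells (y axis, log scale), with 1 point per gene and 5 gene lists in colour. The solid line marks equal values and the dotted lines mark 4-fold; lipocalin and BPI-fold genes lie far above the upper line, neutrophil and mature OSN genes mostly below the lower line, and multiciliated cell genes spread from the diagonal to the left edge, where Ccdc153 is listed at 0 in GFP-negative cells.

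The highest genes of the GFP-positive library were mostly those of secreted proteins of nasal glands and secretory cells. Where a pair of TPM values is given without further words, the first is from GFP-negative cells, and in the account of the tdTomato line from tdTomato-negative cells. Its highest gene was Bpifb9b, a BPI-fold protein, which was at 1304 TPM in the GFP-negative and 55039 TPM in the GFP-positive library. Bpifa1, an airway surface protein also known as SPLUNC1, was at 640.7 TPM in the GFP-negative and 43136 TPM in the GFP-positive library. The odorant-binding lipocalins followed. Obp2a was at 1842 and 41227 TPM in GFP-negative and GFP-positive cells, Obp1a at 503.3 and 32783 TPM, and Obp2b at 1757 and 31703 TPM. Gm14744 and 5430402E10Rik, which lie near Obp1a on chromosome X, reached 35912 and 28136 TPM in GFP-positive cells, from 638.2 and 494.7 TPM. The 10 highest genes were completed by Reg3g, an antibacterial lectin (453.7 and 20056 TPM), Bpifb9a (395.3 and 13474 TPM), and the secretoglobin Scgb1c1 (354.0 and 13348 TPM). All 10 were called higher.

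Of the list of odorant-binding lipocalins and BPI-fold proteins, 15 of 17 genes passed the limit, 14 were called higher, and none was called lower. Their median difference was 5.40, compared with -0.91 over all 11373 genes. Bpifb5 had the largest difference of the list, 6.73, from 10.4 to 1209 TPM. Lcn11 rose by 5.82, from 126.0 to 7179 TPM, and Lcn3 by 3.83, from 542.7 to 7712 TPM. The remaining gene, Lcn2, a lipocalin that binds bacterial siderophores and is also a neutrophil gene, was at 720.4 and 1697 TPM, a difference of 1.23. Bpifa2 was listed at 0 in both libraries, and Bpifb2 was below the limit. The pheromone-carrying lipocalins Mup4 (144.6 and 10941 TPM) and Mup5 (62.3 and 5984 TPM), from the list of lateral nasal and septal glands, rose by 6.23 and 6.56. All 10 genes of that list past the limit, 2 of them only through the GFP-positive library, were called higher, with a median of 5.16. They included Car6, a secreted carbonic anhydrase (10.2 and 253.5 TPM), and Odam (listed at 0 and 229.2 TPM), while Smgc was listed at 0 in both libraries. Of the Bowman gland genes, 14 of 16 were called higher, with a median of 5.13. Of the 14, 3 passed only through the GFP-positive library, Sox9 among them. The genes called higher included Aqp5, a water channel of secretory cells (12.7 and 285.7 TPM), Sox9, a transcription factor of gland and duct cells (1.02 and 18 TPM), and Gpx6, a glutathione peroxidase of the nose (103.9 and 5914 TPM). Lyz2, which macrophages express as well, was at 1581 and 2043 TPM, a difference of 0.37. The lists of this paragraph overlap, so their counts are not independent. Obp2a is in each of them. The lateral gland list also shares Obp1a, Lcn3, Lcn4, and Lcn11 with the lipocalin list, and the Bowman gland list shares Obp2b and its Bpifb genes with it.

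Genes of respiratory secretory and goblet cells moved in the same direction. Of 18 genes that passed the limit, 16 were called higher and none lower, and their median was 5.35. Of the 16, 10 passed only through the GFP-positive library, and the 8 genes with 10 TPM in both libraries had 6 called higher and a median of 5.10. Wfdc2, a secreted protease inhibitor-like protein, was at 50.3 TPM in the GFP-negative and 2624 TPM in the GFP-positive library. Pigr, the receptor that carries immunoglobulins across epithelia, was at 5.96 and 512.2 TPM, and the mucin-folding protein Agr2 at 22.9 and 751.1 TPM. Tff2, a trefoil peptide of mucus, had the largest difference of all genes at a pseudocount of 1 and was listed at 0 in GFP-negative cells and at 787.0 TPM in GFP-positive cells. Scgb1a1, Scgb3a2, and Tff3, which define airway club and goblet cells, were listed at 0 in all 4 libraries. Of the mucin genes and their partners, 8 of 13 were called higher, with a median of 3.19. Of the 8, 5 passed only through the GFP-positive library, and the 7 genes with 10 TPM in both libraries had 3 called higher and a median of 1.27. Muc5b was at 1.96 and 106.0 TPM, Muc5ac at 6.7 and 144.9 TPM, and Muc1 at 11.3 and 163.2 TPM, while Muc13 (10.7 and 27.3 TPM) stayed within 4-fold. Mucosal defence genes split. Of 15 genes, 9 were called higher, among them Wfdc18 (170.4 and 11186 TPM) and Dmbt1 (15.3 and 654.6 TPM), and 4 were called lower. Of the 4, S100a8, S100a9, and Camp are abundant neutrophil proteins, and Slpi (22.6 and 3.33 TPM) is a protease inhibitor. Of the 9 called higher, 5 passed only through the GFP-positive library, and of the 4 called lower, 2 passed only through the GFP-negative library. The 8 genes with 10 TPM in both libraries had 4 called higher and 2 lower.

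**Figure D2:**
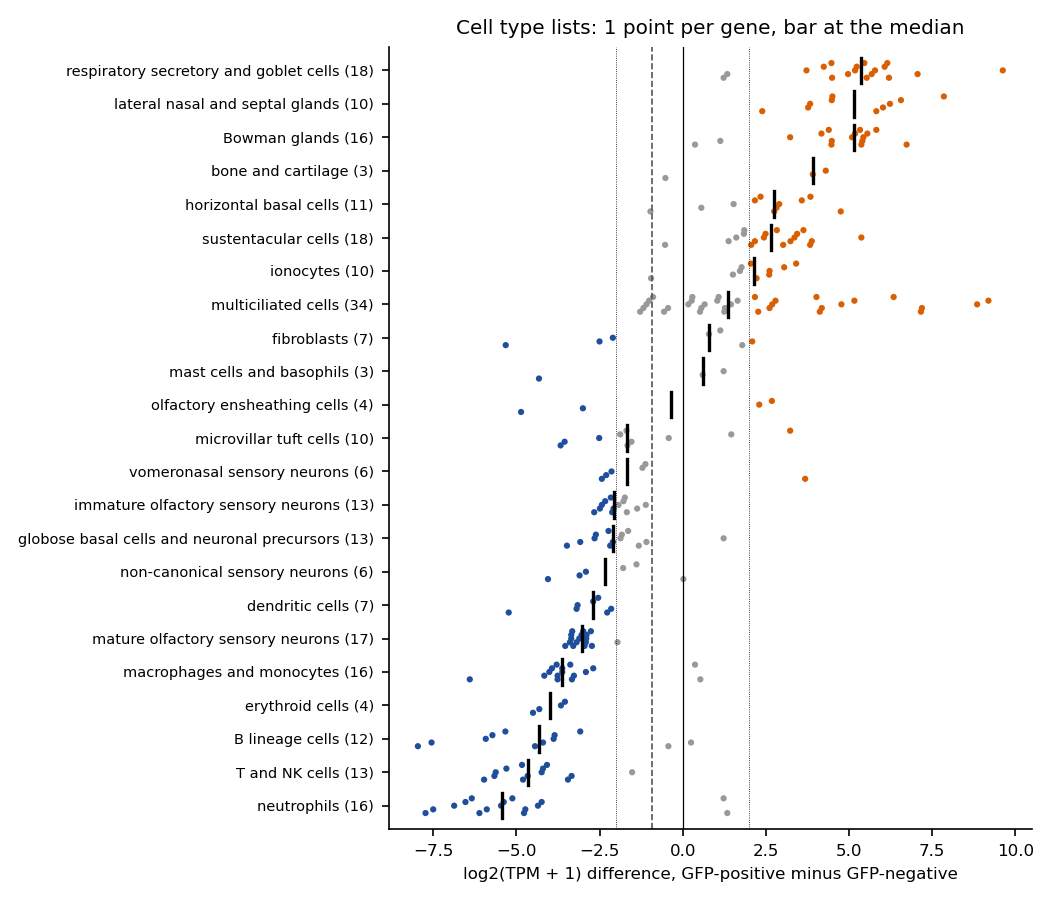
Differences in log2(TPM + 1), GFP-positive minus GFP-negative (x axis), for the genes of 23 cell type lists with 3 or more genes past the limit (y axis, number of genes in parentheses). Each point is 1 gene, orange when called higher, blue when called lower, and grey within 4-fold; black bars are list medians, the dashed line is the median of all 11373 genes (-0.91), and dotted lines mark 4-fold. Gland, secretory, horizontal basal, and sustentacular lists lie to the right of the dashed line; most immune lists lie to its left, except mast cells and basophils (0.60), with neutrophils at the lowest median (-5.42).

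Genes of sustentacular cells and horizontal basal cells were mostly higher in GFP-positive cells. Of 18 sustentacular cell genes, 13 were called higher and none lower, with a median of 2.66. Of the 13, 2 passed only through the GFP-positive library. Cbr2, a carbonyl reductase, was at 434.7 TPM in the GFP-negative and 6411 TPM in the GFP-positive library, and Cyp2a5, a cytochrome P450 of the nasal mucosa, was at 442.4 and 4175 TPM. Cyp2g1, a P450 found almost only in olfactory mucosa, was at 199.6 and 838.1 TPM and was just past the 4-fold limit. The cytoskeletal keratins Krt18 (69.7 and 768.9 TPM) and Krt8 (56.2 and 587.9 TPM) rose by 3.44 and 3.36. The transcription factor Sox2 was at 14.4 and 108.3 TPM, while the Notch target Hes1 was at 22.1 and 69.5 TPM and within 4-fold. Of 11 horizontal basal cell genes, 8 were called higher, with a median of 2.75. Of the 8, 5 passed only through the GFP-positive library, Krt15 and Trp63 among them, and the 5 genes with 10 TPM in both libraries had 3 called higher. Krt5, a keratin of basal cells, was at 15.7 and 199.6 TPM, Krt15 at 8.81 and 262.1 TPM, and Trp63, the transcription factor that keeps horizontal basal cells dormant, at 3.7 and 20.2 TPM. Whether horizontal or other basal cells gave these values was not tested. Icam1 (19.8 and 29.6 TPM) and Cdh3 (10.3 and 4.78 TPM) were within 4-fold. Ionocytes, which are rare chloride-handling cells, gave 6 of 10 genes called higher, among them Ascl3 (21.2 and 182.6 TPM) and Cftr (1.01 and 20.4 TPM). The median of the ionocyte genes was 2.14. Of the 6, 4 passed only through the GFP-positive library, Cftr among them, and the 5 genes with 10 TPM in both libraries had 2 called higher and a median of 1.77. The medians of the gland, secretory, sustentacular, basal, and ionocyte lists were above 0 under every scaling.

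Enzymes that break down odorants and drugs followed the sustentacular and gland genes. Of 14 cytochrome P450 genes that passed the limit, 9 were called higher and none lower, with a median of 2.37. Of the 9, 4 passed only through the GFP-positive library, and the 10 genes with 10 TPM in both libraries had 5 called higher and a median of 1.79. Cyp2f2 was at 161.6 TPM in the GFP-negative and 3653 TPM in the GFP-positive library, while Cyp51, a P450 of cholesterol synthesis, was at 32.9 and 18.5 TPM. Of 29 conjugating and other detoxification enzymes, 22 were called higher and 1 lower, with a median of 2.51. Of the 22, 8 passed only through the GFP-positive library. Gsto1, a glutathione transferase, was at 45.2 and 1044 TPM, and Aldh1a1, which makes retinoic acid, at 20.2 and 816.1 TPM. The gene called lower was Nqo1, a quinone reductase that dorsal OSNs express, at 1308 and 225.8 TPM. Of 9 genes that differ between the dorsal and ventral zones of the MOE, 5 were called lower, Nqo1 among them, and 1 higher. None of the 9 was called lower after median-ratio scaling, and 2 were after removal of the highest genes. Sult1d1, another enzyme abundant in GFP-negative cells, was at 999.5 and 329.0 TPM and within 4-fold. Channels and transporters of epithelia gave 11 of 17 genes called higher, 1 called lower (Slc4a4, 53.6 and 10.6 TPM), and a median of 3.01. Of the 11 genes with 10 TPM in both libraries, 5 were called higher, and their median was 0.77. They included the water channels Aqp3 (59.4 and 627.9 TPM) and Aqp4 (11.8 and 170.1 TPM) and the sodium channel subunit Scnn1a (13.2 and 77.6 TPM). Keratins, tight junction genes, and desmosome genes gave 17 of 26 called higher, none lower, and a median of 3.22. Of the 17, 9 passed only through the GFP-positive library, and the 14 genes with 10 TPM in both libraries had 8 called higher and a median of 2.51. Krt19 was at 13.8 and 453.2 TPM and the cadherin Cdh1 at 12.9 and 206.5 TPM, whereas Epcam (227.9 and 299.7 TPM) and Cldn3 (183.5 and 199.2 TPM) were at like levels in both libraries.

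**Figure D3:**
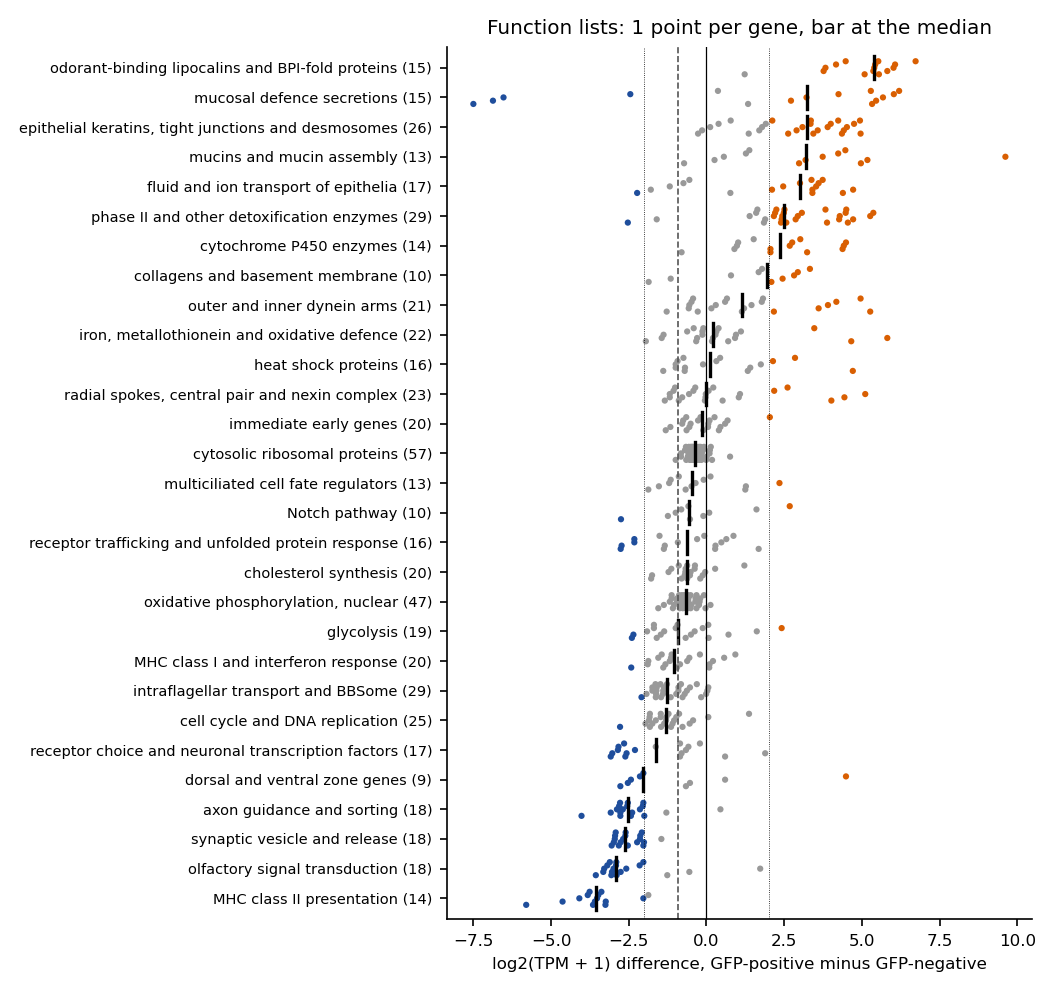
Differences in log2(TPM + 1), GFP-positive minus GFP-negative (x axis), for the genes of 29 function lists (y axis, number of genes past the limit in parentheses), with points, bars, and lines as in the plot of cell type lists. Lipocalin and BPI-fold genes have the highest median (5.40) and MHC class II genes the lowest (-3.55); ribosomal and oxidative phosphorylation genes lie close together within 4-fold.

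Multiciliated cell genes differed widely in their level in GFP-negative cells. Of 34 genes that passed the limit, 15 were called higher and none lower, with a median of 1.36. The 15 genes were between 0 and 17.5 TPM in GFP-negative cells, and 12 of them passed only through the GFP-positive library. Of the 21 genes with 10 TPM in both libraries, 3 were called higher, and their median was 0.52. Ccdc153 was listed at 0 in GFP-negative cells and at 582.8 TPM in GFP-positive cells, and Tmem212 was at 0.0988 and 506.9 TPM. Sntn, which encodes a protein of the tip of motile cilia, was at 1.17 and 174.4 TPM, Cdhr3 at 0.288 and 182.9 TPM, and Ak7, an adenylate kinase of cilia, at 1.81 and 99.1 TPM. The other 19 genes were between 7.43 TPM (Hydin) and 314.5 TPM (Rsph9) in GFP-negative cells, and their differences ranged from -1.28 (Dnah11) to 1.65 (Tppp3). Foxj1, the transcription factor of motile cilia that OSNs express as well, belonged to these, at 126.3 and 302.2 TPM.

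The parts of motile cilia varied in the same way. Of 21 dynein arm genes, 6 were called higher, and the dynein heavy chain genes Dnah5 (1.55 and 45.4 TPM), Dnah6 (0.0028 and 37.6 TPM), and Dnah10 (0.658 and 24 TPM) were among them. The assembly factor Dnaaf3 was at 1 and 61.3 TPM, whereas Zmynd10, which acts in the same process, was at 117.0 and 79.8 TPM. Of 23 radial spoke, central pair, and nexin genes, 5 were called higher, with Spag17 (listed at 0 and 15.2 TPM), Cfap221 (listed at 0 and 20.7 TPM), and Iqca (0.386 and 46.9 TPM) among them. Ccdc39 (160.4 and 108.4 TPM) and Drc1 (194.2 and 104.7 TPM) were within 4-fold. The medians of these lists were 1.14 and -0.03, and the second was above 0 under each of the other scalings. None of the genes of either list with 10 TPM in both libraries was called. Of the regulators of multiciliated cell fate, 1 of 13 was called higher, which was Trp73 (1.73 and 12.9 TPM). Mcidas (0.677 and 6.81 TPM) and Gmnc (listed at 0 and 4.85 TPM) were below the limit. Intraflagellar transport and BBSome genes, which build the cilia of neurons and other cells alike, gave 1 of 29 called lower (Bbs1, 75.4 and 16.9 TPM) and none higher. Their median was -1.27, close to that of all genes, and was above 0 when mature OSN genes were set equal.

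The promoters of the multiciliated genes were searched for GTTGCC, the first part of the X-box that RFX factors bind, and for TAAACA, the core of the forkhead site, on both strands. RefSeq promoters of 300 bases around the start site (GRCm38.p6) were at hand for 30 of the 34 genes. GTTGCC occurred in 18 of their 37 promoters (48.6%), in 12.5% of all 32851 promoters, and in 13.8% of the 741 promoters of genes called higher. TAAACA occurred in 29.7% of the promoters of multiciliated genes and in 13.4% of all promoters. Of the 20 promoters of mature OSN genes, 25% held GTTGCC and 35% held TAAACA, so neither motif was found in multiciliated genes alone. None of the 17 promoters of lipocalin and BPI-fold genes held either motif. These matches describe the sequence and say nothing of a factor being bound. The stretches below are shown because they belong to the 4 multiciliated genes with the largest differences that hold GTTGCC within 250 bases before the start. Each is written on the strand of its gene from 5′ to 3′, with the motif, in either orientation, in capitals. The motif begins 152 bases before the start site in Ccdc153 (chr9:44240468-44240587, plus strand), 6 bases before it in Cdhr3 (chr12:33092876-33092995, minus strand), 66 bases before it in Sntn (chr14:13670753-13670872, plus strand), and 16 bases before it, at the nearer of 2 copies, in Fam183b (chr11:58801961-58802080, minus strand). The start sites are those of the RefSeq promoters, and the RefSeq gene records of Cdhr3 and Fam183b begin further upstream, so that their motifs lie inside those records.
Ccdc153: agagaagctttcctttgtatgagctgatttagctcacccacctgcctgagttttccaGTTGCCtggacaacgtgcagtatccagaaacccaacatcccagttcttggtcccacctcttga
Cdhr3: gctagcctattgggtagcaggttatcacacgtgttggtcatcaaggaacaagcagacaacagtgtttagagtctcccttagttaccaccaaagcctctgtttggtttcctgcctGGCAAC
Sntn: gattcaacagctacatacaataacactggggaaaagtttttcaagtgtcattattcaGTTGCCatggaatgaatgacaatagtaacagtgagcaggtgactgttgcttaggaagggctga
Fam183b: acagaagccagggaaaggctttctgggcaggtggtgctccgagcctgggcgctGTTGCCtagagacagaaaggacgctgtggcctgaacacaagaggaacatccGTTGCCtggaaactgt

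Mature OSN genes fell with GFP. All 17 genes of the list passed the limit, 16 were called lower, and their median difference was -3.04. It was -2.16 after median-ratio scaling and -2.51 after removal of the highest genes, and it was -0.01 by construction when these genes were set equal. Omp, which marks mature OSNs, was the highest gene of the GFP-negative library at 9584 TPM and was at 1108 TPM in GFP-positive cells. Stoml3, a membrane protein of olfactory cilia, was at 8815 and 763.6 TPM, and the calcium-binding protein S100a5 at 6636 and 592.8 TPM. The exception was Calb2, which encodes calretinin, at 697.0 and 178.0 TPM, a difference of -1.96.

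The steps of odorant detection fell together. Gnal, the G protein alpha subunit that receptors activate, was at 1719 TPM in the GFP-negative and 227.5 TPM in the GFP-positive library. Adcy3, the adenylyl cyclase that it switches on, was at 872.5 and 88.3 TPM. The cyclic nucleotide-gated channel subunits Cnga2, Cnga4, and Cngb1 fell by 2.89, 3.32, and 3.19, and Ano2, the chloride channel that amplifies the current, fell from 374.5 to 44.5 TPM. Of 18 transduction genes, 15 were called lower and none higher, and 11 were called lower after median-ratio scaling. Slc12a2, a chloride importer that gland cells use as well, was at 217.1 and 148.0 TPM, and Adrbk2, a receptor kinase, was at 5.06 and 19.1 TPM. Of 18 axon guidance and sorting genes, 15 were called lower, with a median of -2.54. After median-ratio scaling 4 were called lower, with a median of -1.66, and after removal of the highest genes 11 were. Of the 15, 7 passed only through the GFP-negative library, and the 10 genes with 10 TPM in both libraries had 8 called lower. Kirrel2, whose level in OSNs varies with the receptor, had the largest decrease of the list, from 631.1 to 38 TPM, and Nrp1 and Nrp2 fell by 2.03 and 2.14. Of 18 synaptic vesicle genes, 17 were called lower, among them Syp (518.7 and 61.7 TPM) and Slc17a6, the glutamate transporter (199.0 and 24.8 TPM). After median-ratio scaling 6 of the 18 were called lower, and 11 were after removal of the highest genes. Of the 17, 8 passed only through the GFP-negative library. The 9 genes with 10 TPM in both libraries were all called lower, with a median of -2.76.

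Transcription factors and trafficking proteins of OSNs did not all fall. Lhx2 (416.3 and 67.5 TPM), Ebf1 (183.7 and 20.8 TPM), and Emx2 (91.1 and 13.6 TPM), which act in OSNs, were called lower. Ldb1, a partner of Lhx2 with many other roles, was at 242.9 and 77.6 TPM, the demethylase Kdm1a at 103.8 and 59.4 TPM, and Ehmt2, which methylates H3K9, at 55.9 and 48.1 TPM. The receptor transporters Rtp1 (802.0 and 120.4 TPM) and Rtp2 (621.3 and 91.1 TPM) and the stress-induced factor Atf5 (1790 and 356.8 TPM) were called lower. Hspa5, the chaperone BiP, was at 710.8 and 678.5 TPM, and Xbp1, which expands the secretory pathway, was at 88.1 and 284.3 TPM, both within 4-fold. Of 17 genes of the transcription factor list, 8 were called lower, and 2 were after median-ratio scaling. Of 16 trafficking genes, these counts were 4 and 0. Earlier neuronal stages had medians nearer to that of all genes. Of 13 immature OSN genes, 7 were called lower, with a median of -2.08. Gap43, a growth cone protein, was at 471.2 and 107.6 TPM and Tubb3 at 854.1 and 134.7 TPM. Of 13 genes of globose basal cells and neuronal precursors, 7 were called lower, among them Neurod1 (58.1 and 4.29 TPM), while Kit was at 7.09 and 18 TPM. Of the 7, 3 passed only through the GFP-negative library, Neurod1 among them. After median-ratio scaling none of the immature genes and 2 of the precursor genes were called lower. After removal of the highest genes these counts were 2 and 4. The medians of the immature and precursor lists were above 0 when mature OSN genes were set equal.

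The mature OSN promoters were searched for TCCCNNGGG, which is most of the site bound by Ebf factors and in which N stands for any base. It occurred in 5 of 20 promoters (25%) of 13 genes of the list with a RefSeq promoter and in 6.56% of all promoters. The stretches below are from the 2 most abundant genes of the list with a match before the start. Gfy, a Golgi protein of OSNs, was at 3081 TPM in the GFP-negative and 293.0 TPM in the GFP-positive library, and Gng13, the G protein gamma subunit of OSNs, was at 2885 and 362.4 TPM. The first lies at chr7:45179598-45179717 on the minus strand and holds 2 overlapping matches, since the motif reads nearly alike on both strands. The second lies at chr17:25717022-25717141 on the plus strand. Matches in either orientation are in capitals. The start site of Gfy is that of RefSeq and was not found within a GENCODE M21 transcript.
Gfy: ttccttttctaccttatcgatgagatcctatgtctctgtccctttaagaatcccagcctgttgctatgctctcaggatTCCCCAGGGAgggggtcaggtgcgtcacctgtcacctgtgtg
Gng13: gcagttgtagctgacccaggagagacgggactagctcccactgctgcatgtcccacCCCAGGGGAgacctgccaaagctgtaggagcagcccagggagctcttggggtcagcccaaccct

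Immune genes had the largest decreases. Of the 15 genes with the smallest differences, 13 are protein-coding genes of white blood cells and 2 are Mir genes. Prg2, the major basic protein of eosinophils, was at 507.3 TPM in the GFP-negative and 0.0464 TPM in the GFP-positive library. Ngp, a neutrophil granule protein, was at 2552 and 11 TPM, S100a8 at 2347 and 12 TPM, and S100a9 at 3215 and 33.8 TPM. Of 16 neutrophil genes, 14 were called lower, with a median of -5.42. The other 2, Ltf (665.3 and 1691 TPM) and Lcn2, are also made by nasal glands. The B cell receptor subunits Cd79a (191.9 and 0.0293 TPM) and Cd79b (256.5 and 0.0325 TPM) were among 10 of 12 B lineage genes called lower. Vpreb3 (68.6 and 81.8 TPM) and Blnk (45.3 and 33.4 TPM) were the exceptions. The 10 included Ebf1, which acts in OSNs and is in the neuronal precursor list as well. Of the 3 B lineage genes with 10 TPM in both libraries, only Ebf1 was called. Of 13 T and NK cell genes, 12 were called lower, including Gzma, a protease of killer cells (167.1 and 1.68 TPM), and their median was -4.66. All 13 passed the limit only through the GFP-negative library, where they were high, as did 9 of the B lineage genes and 11 of the neutrophil genes, so these counts partly follow from the limit.

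Macrophages, dendritic cells, and erythroid cells followed. Of their genes, all 4 erythroid and all 7 dendritic cell genes, 10 of 16 macrophage genes, and 7 of 14 MHC class II genes passed only through the GFP-negative library. All 4 erythroid genes that passed the limit were called lower, among them Alas2, the first enzyme of haem synthesis (63.7 and 4.58 TPM). Of 3 mast cell and basophil genes, Prss34 was called lower (19 and listed at 0), and Hdc, which makes histamine, was at 110.0 and 167.6 TPM. Of 16 macrophage and monocyte genes, 14 were called lower, among them the complement genes C1qa (170.3 and 16.7 TPM), C1qb (216.9 and 16.7 TPM), and C1qc (197.4 and 15.1 TPM) and the receptor Csf1r (127.2 and 8.46 TPM). Lyz2 and Cd14 (56.5 and 81.7 TPM) were within 4-fold. All 7 dendritic cell genes that passed the limit, 3 of them also after median-ratio scaling, and 13 of 14 genes of MHC class II presentation were called lower. Cd74, the invariant chain of MHC class II, was at 1535 and 136.3 TPM, and H2-Aa at 572.5 and 59.8 TPM. The medians of the neutrophil, B lineage, T and NK, erythroid, macrophage, MHC class II, and dendritic cell lists were below 0 under every scaling. Genes of MHC class I and of the interferon response were close to the median gene, with 1 of 20 called lower, none called higher, and a median of -1.04. B2m was at 1759 and 808.1 TPM and H2-K1 at 838.9 and 894.5 TPM. Apoe, which macrophages and ensheathing glia express, was at 2119 and 263.7 TPM. Of 4 ensheathing glia genes that passed the limit, 2 were called lower, Apoe and Fabp7 (29.5 and 0.0511 TPM), and 2 higher, Sox10 (3.18 and 19.7 TPM) and Erbb3 (4.86 and 36.5 TPM).

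Several groups of genes that most cells use had few or no calls. None of 57 ribosomal protein genes, 47 nuclear genes of oxidative phosphorylation, or 20 genes of cholesterol synthesis was called. Their medians were -0.38, -0.65, and -0.62, and all 3 were above 0 after median-ratio scaling. Eef1a1, a translation factor, was at 5454 TPM in the GFP-negative and 5187 TPM in the GFP-positive library. The immediate early genes Fos (711.5 and 971.1 TPM), Jun (554.7 and 663.1 TPM), and Egr1 (189.0 and 248.9 TPM), which dissociation and activity both induce, were at like levels, and 1 of 20 was called, which was Arc (3.45 and 17.3 TPM). Among heat shock proteins, 3 of 16 were called higher: Hspb1 (6.94 and 207.1 TPM), Hspb8 (11.5 and 88.7 TPM), and Bag3 (5.45 and 27.4 TPM). Hspb1 and Bag3 passed only through the GFP-positive library. The 13 genes with 10 TPM in both libraries had 1 called higher and a median of -0.69. Of 25 cell cycle genes, Cenpa was called lower (41.9 and 5.24 TPM), and the median was -1.30. Mki67 was at 30.5 and 7.9 TPM and Pcna at 259.8 and 110.7 TPM. Glycolysis gave 1 gene called higher, Aldoc (8.61 and 50.4 TPM), and 2 called lower, Eno2 (52.7 and 9.14 TPM) and Slc2a3 (15 and 2.15 TPM), of which Eno2 is the neuronal enolase. Of 22 genes of iron handling and oxidative defence, 3 were called higher, which were Gpx6, Gpx2 (7.3 and 208.6 TPM), and Prdx6 (125.9 and 1403 TPM). Of the Notch pathway, Hey1 was called higher (18.3 and 122.3 TPM) and Mfng lower (47.5 and 6.22 TPM). Arc, Aldoc, and Gpx2 passed only through the GFP-positive library, and Cenpa, Eno2, Slc2a3, and Mfng only through the GFP-negative library.

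For some cell types, several of the listed genes were below the limit in both libraries. Of 3 bone and cartilage genes that passed the limit, Bglap (listed at 0 and 14.1 TPM) and Bglap2 (listed at 0 and 18.7 TPM) were called higher. Both passed only through the GFP-positive library, and the median of 8 such genes with at least 1 TPM in either library was 0.30. Of 14 endothelial genes, only Pecam1 reached the limit, at 41.2 and 1.1 TPM, and Kdr, Cdh5, and Flt1, which define these cells, were below 2 TPM in both. Of 12 genes of pericytes and smooth muscle, only Rgs5 reached it, at 37.4 and 261.9 TPM, while Pdgfrb and Acta2 were below 10 TPM. Of 7 fibroblast genes, 1 was called higher and 3 lower, with Col1a1 at 6.31 and 30.2 TPM and Thy1, which T cells express as well, at 59.5 and 0.516 TPM. Their median was 0.79, and after median-ratio scaling 2 were called higher and 1 lower. Tuft cell genes were low: Trpm5 was at 5.94 and 5.43 TPM and Chat below 1 TPM in both, while Alox5ap (197.6 and 16 TPM) and Plcb2 (19.9 and 0.643 TPM), which were called lower, are also white blood cell genes. Of 10 tuft cell genes that passed the limit, 3 were called lower and 1 higher, with a median of -1.67. Of 6 genes of non-canonical sensory neurons that passed the limit, 3 were called lower and none higher, with a median of -2.35. The 3 were Pde2a (41.1 and 3.91 TPM), Ms4a6c (44.9 and 1.78 TPM), and Ms4a7 (27.4 and 2.79 TPM), which passed only through the GFP-negative library, and Ms4a7 is also a macrophage gene. In addition, Trpc2 and Cnga3, which mark such neurons, were listed at 0 in both libraries. Of 6 vomeronasal neuron genes, 3 were called lower, none of them after median-ratio scaling, and 1 higher, which was Meis2 (1.45 and 30.4 TPM). Collagens and basement membrane genes gave 5 of 10 called higher and a median of 1.94: Lamb3 was at 2.42 and 33.3 TPM and Col17a1 at 2.66 and 24.8 TPM. These genes passed only through the GFP-positive library, and with a minimum of 1 TPM the list held 20 genes, with 5 called higher, 1 lower, and a median of -0.18.

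Expressed as shares of the library, 51 gland and secretory genes held 1.22% of the summed TPM in the GFP-negative and 32.9% in the GFP-positive library. The share of 51 detoxification genes was 0.495% and 2.2%, and that of 71 multiciliated and axoneme genes was 0.409% and 0.757%. In contrast, 26 mature OSN genes held 4.04% in the GFP-negative and 0.526% in the GFP-positive library, and 87 immune genes held 1.78% and 0.0798%. Lyz2, Ltf, and Lcn2 are on immune lists as well but were counted only as gland genes. They were at 1581 and 2043, 665.3 and 1691, and 720.4 and 1697 TPM. The immune share thus leaves out these genes, which had higher values in GFP-positive cells. The 60 ribosomal protein genes held 5.23% and 4.12%. The receptor genes held 1.85% of the GFP-negative and 0.237% of the GFP-positive library. The part of this mixture of cell types in any of the differences above was not tested.

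**Figure D4:**
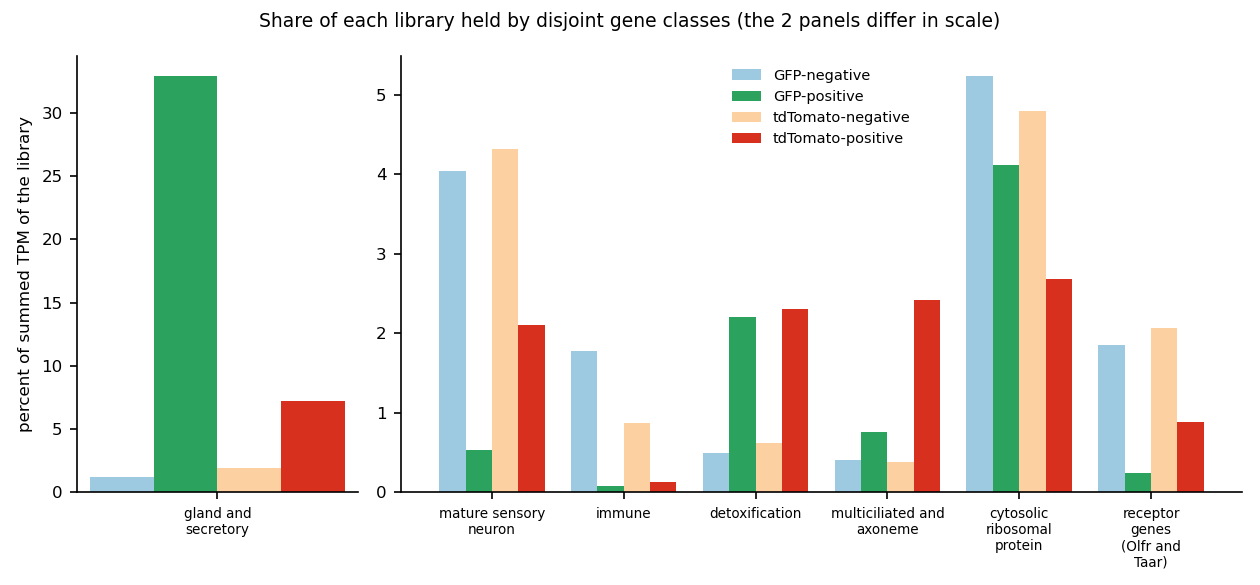
Percent of summed TPM (y axes, from 0, on different scales in the left and right panels) held by 7 classes of genes that share no gene (x axis), with 1 bar for each of the 4 libraries and no error bars because each group has 1 library. Gland and secretory genes hold 32.9% of the GFP-positive library and 7.17% of the tdTomato-positive library. Mature OSN and immune genes hold less of both reporter-positive libraries than of the reporter-negative ones. Lyz2, Ltf, and Lcn2, which are on immune lists as well, are counted as gland genes.

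Some genes called in the same direction followed each other along a chromosome. Among the 10851 genes past the limit that were placed by RefSeq symbols on GRCm38.p6, 4 runs of 5 or more consecutive genes were all called higher. Another 13 runs were all called lower. Receptor genes and genes below the limit were left out of this order and can lie between the genes of a run. On chromosome X (77864758 to 78245921), Gm14744, 5430402E10Rik, Obp1a, Gm5938, and Gm14743 rose by 5.81 to 6.53. Bpifb6, Bpifb3, Bpifb4, Bpifa1, and Bpifb1 on chromosome 2 (153900388 to 154220343) rose by 5.37 to 6.07. The keratin genes Krt23, Krt15, Krt19, Krt14, and Krt17 on chromosome 11 (99477973 to 100261029) rose by 2.90 to 4.94. On chromosome 5 (87575968 to 88008534), Sult1e1 and the secretory protein genes Odam, Csn3, Cabs1, and Smr3a rose by 3.81 to 7.85. Most runs called lower held immune gene families. They included 7 Ms4a genes on chromosome 19 (11249679 to 11604804), the MHC class II genes from H2-Ob to H2-Eb2 with Gpsm3 on chromosome 17 (34238905 to 34591754), and 5 Gimap genes on chromosome 6 (48647186 to 48743795). Neighbouring paralogs share sequence, so their values depend on how reads were assigned among them.

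The TAAR enhancer 2-tdTomato line gave a second sort of reporter-positive cells against which the same 11373 genes were set. There, 710 (6.24%) were called higher and 755 (6.64%) lower in tdTomato-positive cells, with a median difference of -0.20. Of the 855 genes called higher with GFP, 440 (51.5%) were also called higher with tdTomato, 371 were within 4-fold, and 44 (5.15%) were called lower. Of the 1666 genes called lower with GFP, 505 (30.3%) were called lower, 1148 were within 4-fold, and 13 (0.78%) were called higher. The 440 and 505 shared genes were 62% and 66.9% of the genes called with tdTomato. Across genes, which are not independent replicates, Spearman's rho between the differences of the lines was 0.58. With 1 library per group, no difference between the lines was tested.

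Medians of the multiciliated and neutrophil lists, among others, had the same sign in both lines. That of respiratory secretory and goblet genes was 5.35 with GFP and 2.73 with tdTomato, and that of T and NK cell genes was -4.66 and -4.04. The lipocalin and BPI-fold list had medians of 5.40 with GFP and -0.13 with tdTomato, where 4 genes were called higher and 4 lower. Ccdc153 was at 13.6 TPM in the tdTomato-negative and 2010 TPM in the tdTomato-positive library, and the multiciliated list had a median of 3.36 in this line, compared with 1.36 with GFP. Of the 34 genes, 27 were above 0 in both lines, and the other 7, such as Dnah11 (-1.28 with GFP and 0.96 with tdTomato), were below 0 with GFP and above 0 with tdTomato. S100a8 was at 687.1 and 0.754 TPM, and the neutrophil list had a median of -5.14. Mature OSN genes were within 4-fold in the tdTomato line, with a median of -1.03, and Omp was at 10108 and 4427 TPM. Bpifa1 was called higher in both lines and was at 6643 and 53377 TPM with tdTomato.

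The 44 genes that were higher with GFP and lower with tdTomato included 10 genes of the gland and secretory lists, 2 keratin genes, and 3 Mir genes, while 30 of them were in none of the lists. Together they held 0.472% of the GFP-negative and 19.5% of the GFP-positive library, and 1.26% of the tdTomato-negative and 0.0647% of the tdTomato-positive library. All 5 genes of the run on chromosome X were among them. Obp1a was at 1518 TPM in the tdTomato-negative and 30.1 TPM in the tdTomato-positive library, Obp2a at 86.6 and 0.58 TPM, and Lcn11 at 299.5 and 0.0906 TPM. Mup4, Gpx6, Bpifb3, and Scgb1c1 had differences of -4.67, -4.62, -6.76, and -3.46 with tdTomato. Lateral nasal and septal gland genes as a list had a median of -3.51 with tdTomato and 5.16 with GFP. Krt15 (19.5 and 3.99 TPM) and Krt14 (29.4 and 5.55 TPM) were called lower with tdTomato as well, and the horizontal basal cell list had a median of -1.39. Igfbp5 of the same list was called higher (70.9 and 529.2 TPM with tdTomato), and the summed TPM of the list was 266.7 and 599.7 in the tdTomato libraries. Bowman gland genes were divided: Bpifb9b (149.6 and 1354 TPM) was called higher in both lines, whereas Obp2b, at 5.14 and 11 TPM, was low in both tdTomato libraries. Sustentacular genes gave 6 of 18 called higher with tdTomato, and Cyp2g1, at 248.2 and 84.9 TPM, was within 4-fold on the lower side.

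**Figure D5:**
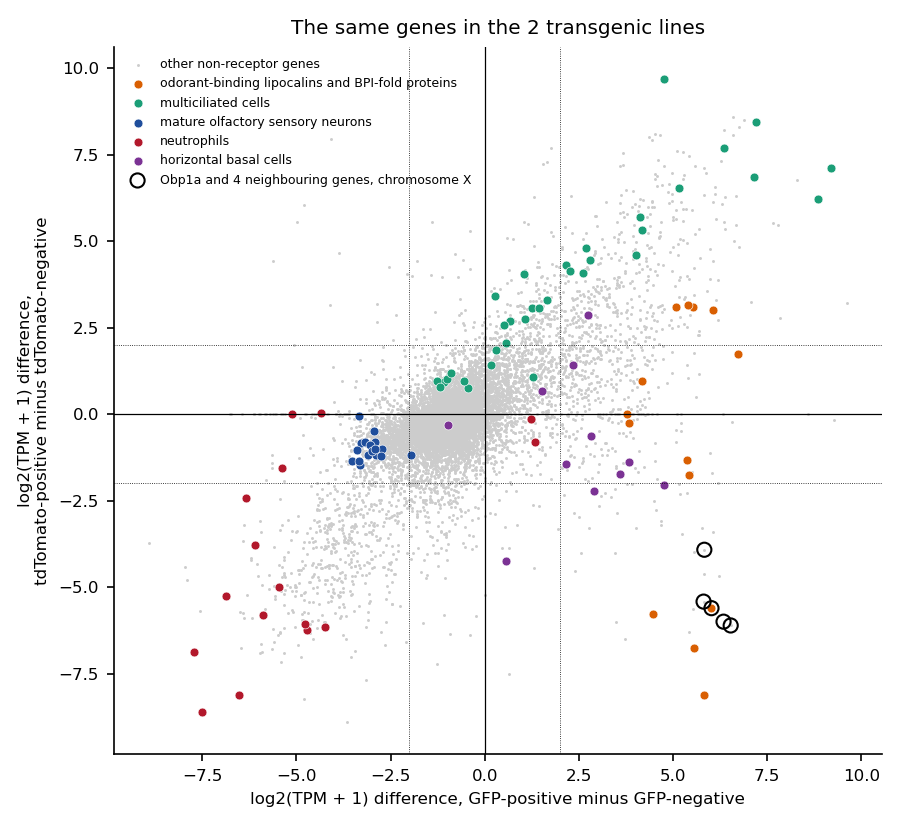
Difference in log2(TPM + 1) with GFP (x axis) and with tdTomato (y axis), reporter-positive minus reporter-negative, for each of the 11373 genes, with 5 gene lists in colour and the 5 neighbouring genes of chromosome X circled. Solid lines mark 0 and dotted lines 4-fold; most multiciliated genes lie in the upper right, with 7 of 34 in the upper left, most neutrophil genes lie in the lower left, and the circled genes in the lower right, at 5.81 to 6.53 with GFP.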

How the data were processed

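RNA-seq of sorted MOE cells was analysed in 4 libraries, 1 for each of the GFP-positive, GFP-negative, tdTomato-positive, and tdTomato-negative groups, which were taken from the sample labels. The table deposited by the authors gives TPM per gene symbol, and each library sums to 1000000. The submitters' processing notes name the mm10 genome, Trimmomatic 0.36, and Salmon 1.4.0, whereas the study's methods name Hisat2 and Cufflinks, and which of them gave the TPM values was not settled. The labels and the methods also name different kits for RNA extraction and libraries. Read depth is unknown, so intervals and detection limits could not be given.

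Differences were calculated as log2(TPM + 1), which understates the change of low genes, and 4-fold was the limit for a call. Where a gene was listed at 0, its difference depends on the pseudocount, and its levels are given instead. The 25 cell type lists and 30 function lists hold 969 genes, of which 929 were in the deposited values and 747 passed the limit of 10 TPM. The list of mitochondrially encoded genes had no gene in the values. The members and lists were chosen with earlier results of these data known, so the lists are described by counts and medians without a test. Named by rule were the 10 genes with the highest TPM in each library, the 15 largest and 15 smallest differences, the 10 largest and 10 smallest among genes that reached 100 TPM in both libraries, and up to 5 genes of the highest TPM in each list. Other genes were chosen after their values were seen. Promoters and positions are from RefSeq (GRCm38.p6), and start sites were checked against GENCODE M21 transcripts. Alternatives were pseudocounts of 0.1 and 10, minimum values of 1 and 50 TPM or of 10 TPM in both libraries, a 2-fold limit, and 3 scalings of the libraries. The calculations were tested on simulated data. Python 3.11.15, NumPy 2.4.6, pandas 2.3.3, and matplotlib 3.10.9 were used.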

Additional observations from a re-analysis of the deposited data

Results flagged for a closer look

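Some genes and lists had opposite directions in the 2 transgenic lines, with each line represented by 1 reporter-positive and 1 reporter-negative library. None of these differences between the lines was tested. The values are differences in log2(TPM + 1), reporter-positive minus reporter-negative. Among genes that hold much of the GFP-positive library, Obp2a was at 4.48 with GFP and -5.79 with tdTomato, Obp1a at 6.02 and -5.61, and its neighbours Gm14744 and 5430402E10Rik at 5.81 and -5.42 and at 5.83 and -3.92. Scgb1c1 was at 5.23 and -3.46, Mup4 at 6.23 and -4.67, Lcn11 at 5.82 and -8.11, Gpx6 at 5.82 and -4.62, and Bpifb3 at 5.55 and -6.76. The list of lateral nasal and septal glands had medians of 5.16 with GFP and -3.51 with tdTomato, and the list of horizontal basal cells had medians of 2.75 and -1.39.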

How the results depend on the processing

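Every group holds a single library, no paired analysis was run, and none of the results rests on a test. The 855 genes called higher became 357 with a pseudocount of 10, 334 with a minimum of 50 TPM, 164 with 10 TPM in both libraries, 5834 when mature OSN genes were set equal, and 1306 at 2-fold. The 1666 called lower became 581, 780, 566, 252, and 5206 under these settings, and 765 after median-ratio scaling. The median difference of -0.91 became -0.05 after median-ratio scaling and reversed to 2.03 when mature OSN genes were set equal. Lists with a median at least 4-fold above that of all genes numbered 8 for cell types and 9 for functions and stayed within 1.5 times of these numbers throughout. Lists at least 4-fold below it numbered 6 for cell types, which became 2 with a pseudocount of 10 and 3 with 10 TPM in both libraries. For functions, 1 list became 2 with a pseudocount of 0.1, a minimum of 1 TPM, or 10 TPM in both libraries. Relative to the median of all genes, 8 list medians changed sign under at least 1 setting. Of these, 4 had been at least 1.5-fold from it and changed to -0.15 (fibroblasts), -0.65 (mast cells and basophils), and 0.22 (zonal genes) with a minimum of 1 TPM and to 0.39 (B lineage cells) with 10 TPM in both libraries. The other 4 had been nearer to it, among them ensheathing glia, which went from 0.56 to -0.31 with a minimum of 1 TPM, and multiciliated fate regulators, which went from 0.43 to -0.14 with a minimum of 50 TPM. The cause of these changes was not tested. Unknown read depth limits what can be said of genes with low TPM.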

Other observations

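The 13 genes that were lower with GFP and higher with tdTomato held 0.0434% of the GFP-negative and 0.00376% of the GFP-positive library. Short RNA genes made up much of this group, with Snord64 at 59.3 TPM in the GFP-negative and 2.54 TPM in the GFP-positive library, and at 0 and 249.2 TPM in tdTomato-negative and tdTomato-positive cells. Aqp1, a water channel of blood vessels and red blood cells, was at 14.1 and 1.09 TPM with GFP and at 0.0992 and 5.93 TPM with tdTomato.

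Among the largest differences with GFP were genes with little known function that rose in both lines beside multiciliated genes. AU040972 was at 3.27 TPM in the GFP-negative and 1341 TPM in the GFP-positive library, and at 20.4 and 2339 TPM in tdTomato-negative and tdTomato-positive cells. In contrast, 5430401F13Rik was at 5.06 and 3764 TPM with GFP and at 0.114 TPM and 0 with tdTomato, and Pip, a secreted protein of salivary and lacrimal glands, was listed at 0 in 3 of the 4 libraries and was at 384.1 TPM in GFP-positive cells. Nme9, 4833427G06Rik, 1700026L06Rik, and Gm12695 were listed at 0 in GFP-negative cells, at 221.1, 199.7, 116.6, and 106.6 TPM in GFP-positive cells, and at 865.2, 535.2, 364.2, and 381.2 TPM in tdTomato-positive cells.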
